A study of Homo sapiens with 12 samples.

Results

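The comparison described here set H520 cells given BLU9931 and palbociclib together, each at 1 µM for 72 h, against control cells of the same line, across all genes of the deposited expression table. It used 6 of the 12 libraries of the series directly, 3 of the combination and 3 of control, and 20612 of the 58174 genes in the table had enough counts to be tested. The other 6 libraries, 3 of palbociclib alone and 3 of BLU9931 alone, each drug at 1 µM for 72 h, entered the model that estimates the spread between libraries. H520 is an established human cell line derived from a squamous carcinoma of the lung. What the control cells were given is not in the labels, and neither is whether the replicates were separate cultures, so p-values measure the spread between these libraries, which may be technical.

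Palbociclib inhibits CDK4 and CDK6, the kinases that pair with D cyclins in G1. These kinases phosphorylate the retinoblastoma protein RB1, which otherwise holds E2F transcription factors inactive and so keeps the genes of DNA replication low. Genes of G2 phase and mitosis are held low in resting cells by a related complex that contains p107 or p130, E2F4 and the MuvB core, and that binds a promoter element named CHR (cell cycle genes homology region). BLU9931 is an inhibitor of the receptor FGFR4, which signals, with the co-receptor KLB and the ligand FGF19, into the RAS and ERK pathway.

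Each library held between 21730722 and 35786607 counts, and transcripts of the mitochondrial genome took 12.04% to 15.2% of them. Control library 1 stood apart from its group. Its chi-square per degree of freedom against the other 2 control libraries was 63.2 and 67.3, where other pairs of replicates in the comparison had 17.6 to 24.2, and its deviation across genes ran with GC content (Spearman correlation -0.781). Calls of named genes that were lost or gained without this library are given with the gene. Among squamous markers, SOX2 stood at 413 to 441 TPM (a level scaled for transcript length and library size) in the combination libraries and 342 to 383 TPM in the control libraries. Defining basal markers did not go with the label: TP63, KRT14, DSG3 and PKP1 were at most 0.0723 TPM in the 6 libraries, KRT17 was at 0 in all of them, and KRT5 was at most 0.345 TPM. The 13 markers set for squamous carcinoma cells summed to 1439 to 1450 TPM in the combination and 1422 to 1493 TPM in control. SOX2, EPCAM, KRT8 and KRT18 made up nearly all of each sum, so it does not measure the basal markers. Within it EPCAM fell, with 405 to 505 TPM in the combination and 639 to 757 TPM in control. KRT8, CDH1, KRT6A and TRIM29 rose, but without control library 1 the calls of KRT8, KRT6A and TRIM29 were lost. The 8 markers of lung glandular cells summed to 8.57 to 9.83 TPM in the combination and 4.17 to 10.7 TPM in control. Most of this was NKX2-1, at 6.65 to 8.27 TPM in the combination and 2.93 to 8.66 TPM in control, which did not pass the threshold. Markers of fibroblasts, leukocytes and endothelium summed to at most 5.11 TPM in the combination and 5.81 TPM in control, with CDH5 at 0 in all 6 libraries. The leukocyte part was 5.01 to 5.11 TPM in the combination and 1.68 to 2.30 TPM in control. In it LYZ had 3.15 to 3.503 TPM in the combination and 0.243 to 0.364 TPM in control, with PTPRC and CD3E at or near 0. The part of such cells in the results was not tested.

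With both drugs the cells had less RNA of most genes that license replication origins or build the mitotic spindle (31 of 36 and 39 of 41 tested genes fell), and more RNA of a number of interferon-stimulated genes, keratins and differentiation genes, and lysosomal genes (18 of 33, 13 of 26 and 35 of 71 rose). By edgeR's quasi-likelihood test with Benjamini-Hochberg adjustment (below, edgeR adjusted p, with the threshold at 0.05), 6532 genes or 31.7% of those tested differed between combination and control. Of these, 3174 genes (15.4%) rose and 3358 genes (16.3%) fell. Rises and falls of at least 2-fold numbered 1605 and 1578 genes, and those of at least 8-fold numbered 120 and 143 genes. The median log2 fold change was 0.03 over all genes tested, 1.01 among genes that rose and -0.95 among genes that fell. In 9979 genes (48.4%) the 3 combination and 3 control libraries did not overlap. In bulk RNA, fewer cells in a given phase of the cell cycle and less RNA per cell cannot be told apart.

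**Figure D1:**
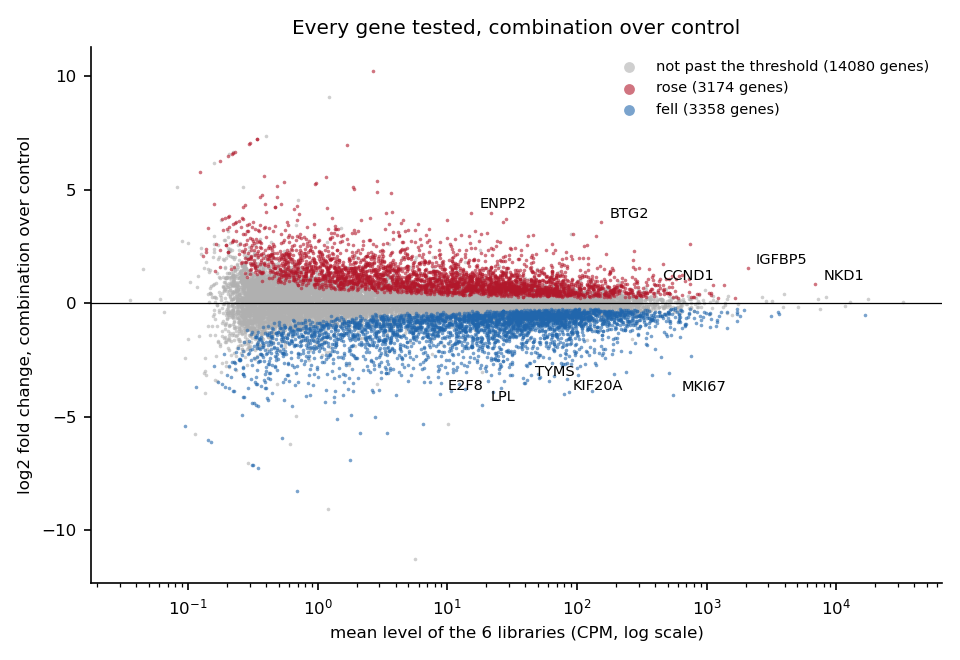
Every gene tested, with the mean level of the 6 libraries in CPM (log scale) across and the log2 fold change of combination over control up. Red points rose (3174 genes), blue points fell (3358 genes) and grey points did not pass the threshold (14080 genes). Labelled falls such as MKI67 (-4.04) and LPL (-4.50) lie as far from the line as labelled rises such as ENPP2 (3.99) and BTG2 (3.56).

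The gene with the largest fall among abundant protein-coding genes was LPL, which encodes lipoprotein lipase, a secreted enzyme that splits triglycerides. In CPM (counts scaled to a common library size), LPL had 1.86, 1.31 and 1.54 CPM in the combination libraries, against 38.4, 35.1 and 33.2 CPM in the control libraries, a log2 fold change of -4.50 ± 0.21 (edgeR adjusted p = 7.3e-08). MKI67 (chr10:128096659-128126385), which encodes the Ki-67 protein that coats mitotic chromosomes and is the standard marker of cycling cells, had 74.6, 41.5 and 74.1 CPM in the combination libraries, against 1079, 964 and 1082 CPM in the control libraries. Its log2 fold change was -4.04 ± 0.21 (edgeR adjusted p = 2.15e-07), a 16.4-fold fall. All 3 combination libraries lay an order of magnitude below the lowest control library in MKI67. The next falls by size were those of KIF20A, the scaffold gene IQGAP3, the DNA helicase gene PIF1, NEURL1B, MYBL2, the calcium-dependent kinase gene CAMK4, the fucosyltransferase gene FUT9 and the DNA glycosylase gene NEIL3, with log2 fold changes between -4.01 and -3.55. NEURL1B showed the spread of control library 1, with 1.41, 1.21 and 1.44 CPM in the combination libraries and 4.8, 25.4 and 29.9 CPM in the control libraries.

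The largest rises among abundant protein-coding genes were those of GSX1, a homeobox gene, and ENPP2, which encodes autotaxin, the enzyme that makes lysophosphatidic acid. GSX1 had 35.7, 39.9 and 47.2 CPM in the combination libraries, against 1.53, 2.8 and 3.31 CPM in the control libraries (log2 fold change 4.0 ± 0.37, edgeR adjusted p = 1.29e-05). ENPP2 had 28.6, 29.9 and 28.3 CPM in the combination libraries, against 1.27, 2.28 and 1.87 CPM in the control libraries (log2 fold change 3.99 ± 0.22, edgeR adjusted p = 3.34e-07). The combination libraries lay at least an order of magnitude above the control libraries in ENPP2. The sodium and proton exchanger gene SLC9A4 averaged 52.6 ± 0.225 CPM in the combination and 3.94 ± 0.671 CPM in control (SD, n = 3 each). BTG2 (chr1:203305491-203309602), an antiproliferative gene that p53 and other signals induce, had 292, 267 and 295 CPM in the combination libraries, against 21.3, 25.9 and 25 CPM in the control libraries. Its log2 fold change was 3.56 ± 0.11 (edgeR adjusted p = 6.05e-09), with no overlap between the groups. ANO7, FAM26E, the glucose transporter gene SLC2A12, the stress-induced gene TP53INP1, KIAA1324 and the anion exchanger gene SLC26A9 followed, with log2 fold changes between 3.59 and 2.96.

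Genes were grouped into 38 lists by function, 11 of them for the cell cycle. The 11 cell cycle lists held 358 distinct genes that were tested, of which 13 (3.63%) rose and 272 (76.0%) fell, with a median log2 fold change of -1.35. The other 27 lists held 952 tested genes, of which 214 (22.5%) rose and 227 (23.8%) fell, with a median of -0.02. Over all genes tested, the shares were 15.4% and 16.3%. Where a list below has shares near these, its counts do not set it apart from all genes. Among the cell cycle lists the kinesins (7 rose, 18 fell) and the G1 regulators (3 rose, 10 fell) went in both directions, and in the other 9 at most 1 member rose.

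**Figure D2:**
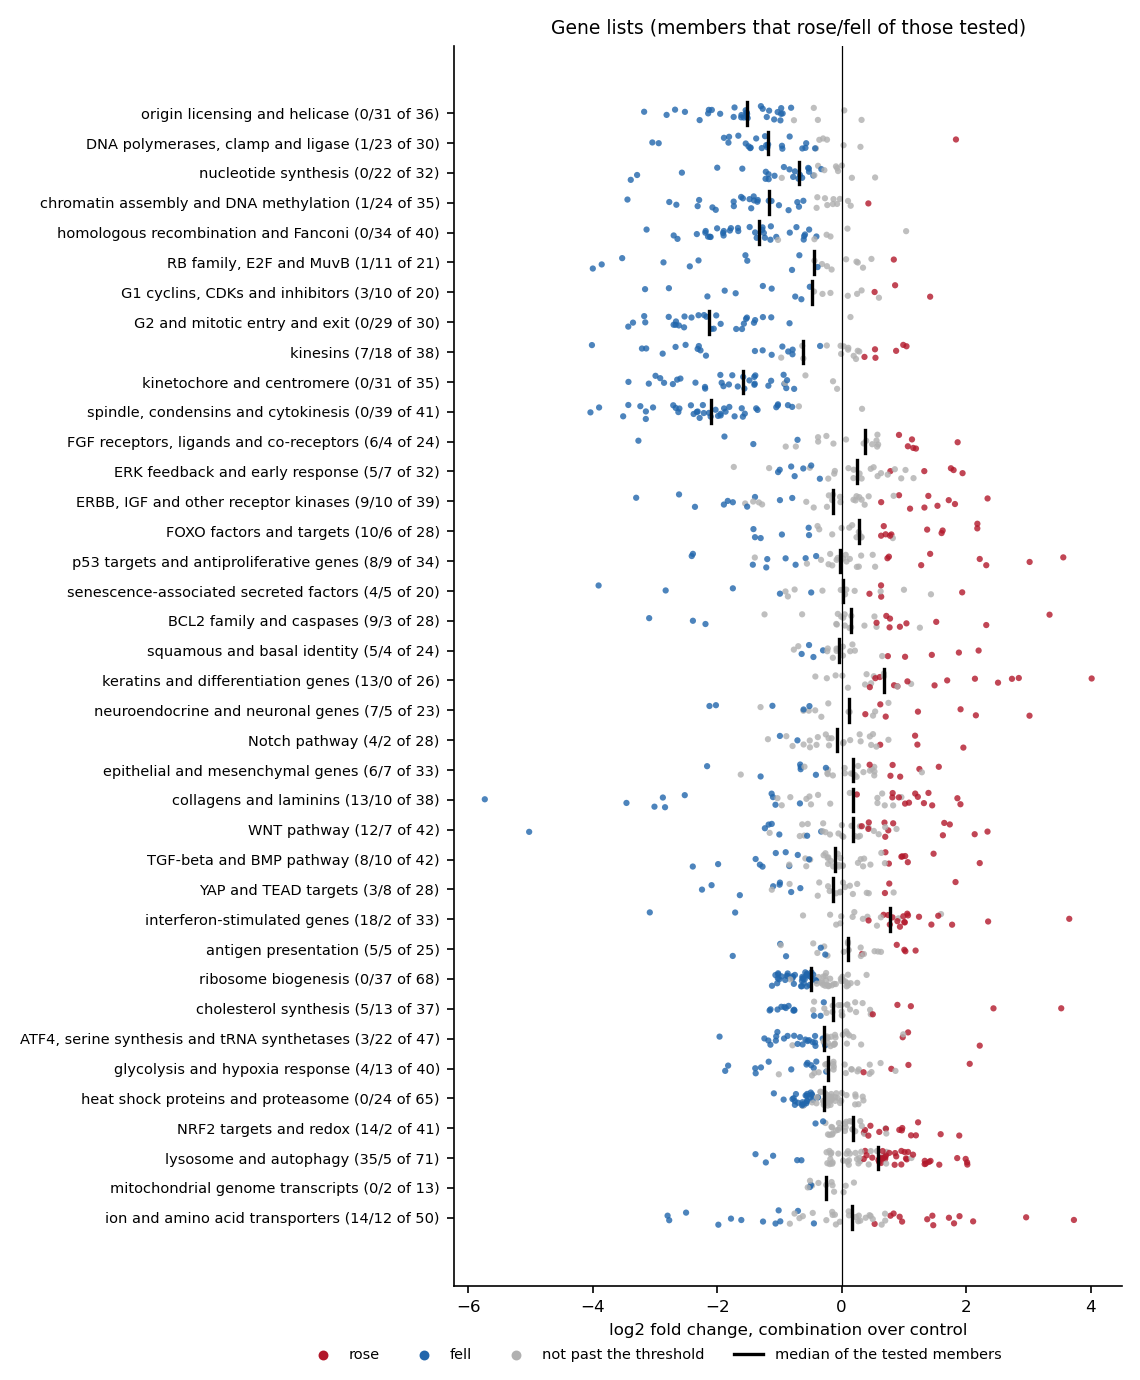
Log2 fold change of combination over control for every tested member of the 38 gene lists, 1 row a list, with the numbers that rose and fell. Red, blue and grey points rose, fell or did not pass the threshold, black bars are list medians, and KIF19, which had no count in control, is left out. The G2 and mitotic entry list (29 of 30 members fell) and the spindle list (39 of 41 fell) lie farthest left, and interferon-stimulated genes (18 of 33 rose) and keratins (13 of 26 rose) lie right of 0.

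Genes that license and fire replication origins fell almost without exception: 31 of 36 fell and none rose, with a median log2 fold change of -1.52. The 5 that did not pass were RECQL4, ORC3, ORC2, ORC5 and ORC4, with log2 fold changes of -0.77, -0.45, -0.38, 0.04 and 0.32. MCM10, which helps to activate the replicative helicase, had 6.03, 5.87 and 6.25 CPM in the combination libraries, against 59.3, 50 and 54.8 CPM in the control libraries (log2 fold change -3.17 ± 0.12, edgeR adjusted p = 3.24e-08). TICRR, which is needed for origin firing, averaged 36.6 ± 2.02 CPM in the combination and 161 ± 1.92 CPM in control (SD, n = 3 each). CDC45 and GINS2, which join the MCM ring to form the active helicase, had log2 fold changes of -2.68 ± 0.12 and -2.09 ± 0.10. GINS2 had 25.3, 24.4 and 26.7 CPM in the combination libraries, against 112, 107 and 106 CPM in the control libraries. All 3 combination libraries of each of these genes lay below all 3 control libraries.

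The enzymes that copy DNA and supply its building blocks fell as well, in 23 of 30 genes of the polymerase list and 22 of 32 genes of the nucleotide list. PCNA, the sliding clamp of the polymerases, had 33.6, 33.8 and 32.6 CPM in the combination libraries, against 139, 117 and 115 CPM in the control libraries (log2 fold change -1.89 ± 0.11, edgeR adjusted p = 4.08e-07). POLE2, a subunit of DNA polymerase epsilon, PRIM1, the catalytic subunit of primase, and LIG1, the ligase that joins Okazaki fragments, had log2 fold changes of -2.94 ± 0.16, -3.04 ± 0.21 and -1.81 ± 0.13. POLD4, the smallest subunit of DNA polymerase delta, was the exception and rose, with 14.1, 6.22 and 10.6 CPM in the combination libraries, against 2.83, 2.04 and 3.74 CPM in the control libraries (log2 fold change 1.84 ± 0.39, edgeR adjusted p = 0.00403). TYMS (chr18:657604-673578), which encodes thymidylate synthase, had 6.03, 7.68 and 7.59 CPM in the combination libraries, against 72.4, 74.8 and 76.6 CPM in the control libraries (log2 fold change -3.39 ± 0.13, edgeR adjusted p = 3.11e-08). RRM2 and RRM1, the subunits of ribonucleotide reductase, averaged 9.54 against 93.2 CPM and 94.2 against 285 CPM in combination against control libraries. The log2 fold changes were -3.29 ± 0.14 for RRM2 and -1.60 ± 0.13 for RRM1. The nucleotide list had a median log2 fold change of -0.68 and the polymerase list one of -1.19.

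Promoter stretches show the E2F element in 3 genes that fell. They are RefSeq sequence of build GRCh38.p14, read 5′ to 3′ on the gene's strand, and each lies before the RefSeq start site of its gene. Capitals mark the match to the E2F motif, which was searched as TTTCCCGC, TTTGGCGC, TTTCGCGC or TTTGCCGC on either strand. The TYMS stretch lies at chr18:657564-657652 (plus strand), that of GINS2 at chr16:85688955-85689035 (minus strand) and that of E2F2 at chr1:23531234-23531325 (minus strand).
TYMS: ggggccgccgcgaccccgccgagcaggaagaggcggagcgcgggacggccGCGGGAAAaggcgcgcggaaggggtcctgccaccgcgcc
GINS2: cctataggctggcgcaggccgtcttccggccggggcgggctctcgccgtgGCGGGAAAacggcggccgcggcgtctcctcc
E2F2: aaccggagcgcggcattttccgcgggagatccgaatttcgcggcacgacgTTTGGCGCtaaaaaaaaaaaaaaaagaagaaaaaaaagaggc
Of 14580 protein-coding genes tested, 11595 had a promoter in the RefSeq table, from 250 bases before the start to 50 bases after it. The E2F motif was in 5.24% of all these promoters, in 43.3% of the origin list (13 of 30), in 32.0% of the polymerase list (8 of 25) and in 35.3% of the RB, E2F and MuvB list (6 of 17). In the nucleotide list, which holds TYMS, it was in 7.41% (2 of 27), near the share of all promoters. It was in 8.38% of promoters of genes that fell and 3.03% of those of genes that rose. In the origin list the median match began 9 bases before the start site, against 102 bases before it over all promoters. Within the 100 bases before the start, the shares were 16.7% of the origin list and 1.77% of all. A match is a description of the letters and does not show that a factor binds there.

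Among the E2F transcription factors, E2F1, E2F2, E2F7 and E2F8 fell, and E2F3, E2F4, E2F5 and E2F6 did not pass, with log2 fold changes between -0.24 and 0.24. E2F7 (chr12:77021247-77065580) and E2F8 repress E2F targets late in S phase. E2F7 had 5.94, 5.76 and 6.84 CPM in the combination libraries, against 74.2, 70.9 and 69.1 CPM in the control libraries (log2 fold change -3.53 ± 0.13, edgeR adjusted p = 2.49e-08). E2F8 averaged 1.02 ± 0.264 CPM in the combination and 16.4 ± 2.29 CPM in control (SD, n = 3 each). The activators E2F2 and E2F1 had log2 fold changes of -2.86 ± 0.16 and -1.55 ± 0.23. E2F1 had 23.3, 25.8 and 30.3 CPM in the combination libraries and 53.7, 88.5 and 89.8 CPM in the control libraries. MYBL2, the B-MYB factor that joins MuvB to activate mitotic genes, had 17.1, 14.2 and 19.1 CPM in the combination libraries, against 209, 259 and 264 CPM in the control libraries, a log2 fold change of -3.86 ± 0.16 (edgeR adjusted p = 4.92e-08). TFDP2, a dimer partner of E2F proteins, was the member of this list of 21 that rose, with 101, 104 and 101 CPM in the combination libraries, against 56.8, 56 and 58.3 CPM in the control libraries, and 11 members fell. Without control library 1 a further member of the list rose. RB1 itself had 106, 106 and 92.4 CPM in the combination libraries and 173, 121 and 118 CPM in the control libraries and did not pass (edgeR adjusted p = 0.123), although it did without palbociclib library 3, without control library 1 and palbociclib library 3, and under both GC corrections (adjusted p up to 0.0189).

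The G1 regulators upstream of RB1 went in both directions. CCND1 (chr11:69641087-69654474), the cyclin D1 gene, whose product activates CDK4 and CDK6, rose with 508, 469 and 536 CPM in the combination libraries, against 282, 276 and 276 CPM in the control libraries (log2 fold change 0.86 ± 0.08, edgeR adjusted p = 8.53e-06). CDK6 had 440.5, 455 and 409.9 CPM in the combination libraries and 367, 269 and 269 CPM in the control libraries (log2 fold change 0.53 ± 0.16, edgeR adjusted p = 0.0267). This call did not hold without control library 2 or 3 or without combination library 1 or 2 (adjusted p up to 0.107). CDK4 had 92, 70.1 and 99.4 CPM in the combination libraries and 66.9, 71.6 and 71 CPM in the control libraries, groups that overlap, and did not pass (edgeR adjusted p = 0.14, or 0.0499 without combination library 2). CDKN1A (chr6:36676460-36687339), the gene of the CDK inhibitor p21, rose, with 7.84, 7.14 and 9.13 CPM in the combination libraries, against 1.9, 2.6 and 4.45 CPM in the control libraries (log2 fold change 1.42 ± 0.26, edgeR adjusted p = 0.00164). CDKN1B, the gene of p27, had a log2 fold change of -0.31 ± 0.12 (edgeR adjusted p = 0.0787), which passed in 4 alternatives, among them those without control library 2 and without palbociclib library 3 (adjusted p up to 0.043). Other CDK inhibitor genes fell. CDKN2C fell 8.94-fold, the largest fall of the list, and its call held in all 25 alternatives. CDKN2D fell 1.68-fold, a call lost in 5 alternatives, among them without control library 2 or 3 or combination library 2 or 3 (adjusted p up to 0.0829). The kinase and phosphatase genes that act after RB1 fell. CCNE2, which encodes cyclin E2, had 5.3, 4.87 and 4.91 CPM in the combination libraries, against 45.5, 29.1 and 28.8 CPM in the control libraries (log2 fold change -2.78 ± 0.24, edgeR adjusted p = 8.03e-06). Its partner CDK2 averaged 21.6 ± 3.41 CPM in the combination and 70.4 ± 6.04 CPM in control (SD, n = 3 each), and the phosphatase gene CDC25A averaged 8.65 ± 0.789 CPM in the combination and 31.9 ± 1.8 CPM in control (SD, n = 3 each). FBXO5, an inhibitor of the anaphase-promoting complex, and CKS1B, a CDK subunit, had log2 fold changes of -2.16 ± 0.18 and -1.27 ± 0.10. In all, 3 of the 20 tested members of this list rose and 10 fell.

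**Figure D3:**
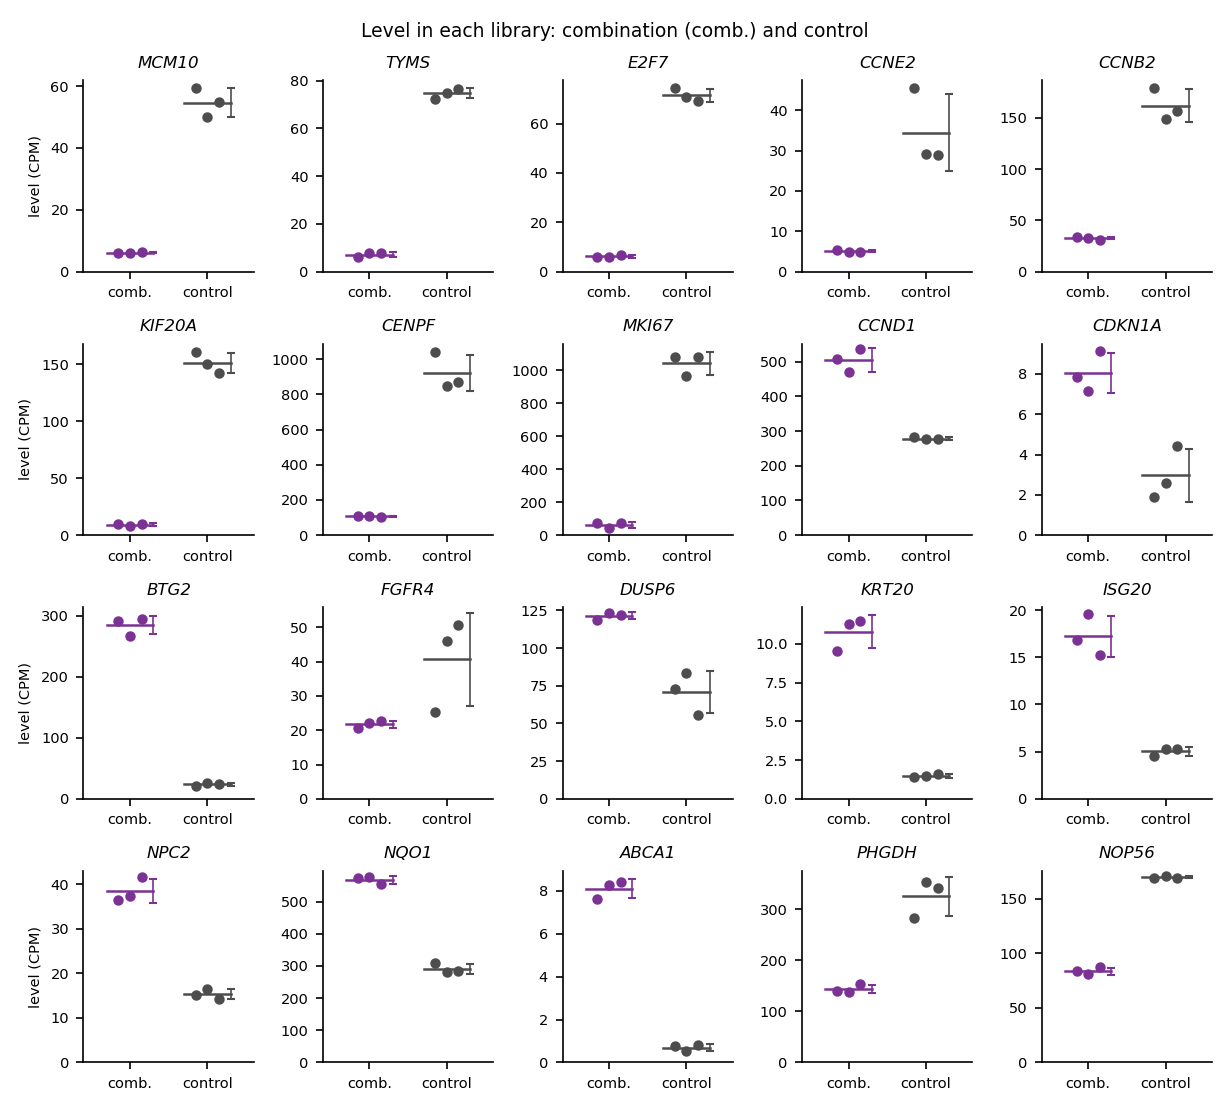
Level of 20 genes in each library, in CPM, with the 3 combination libraries left of the 3 control libraries in each panel. Points are libraries, horizontal lines group means and error bars 1 SD, and every axis starts at 0. Cell cycle genes such as MCM10, KIF20A and MKI67 have combination points far below control, CCND1, CDKN1A and BTG2 have them above, and FGFR4 shows control library 1 near the combination.

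Genes of G2 phase and of entry into and exit from mitosis had the lowest median of the 38 lists, a log2 fold change of -2.14, with 29 of 30 members falling and none rising. The member that did not pass was FZR1, an activator of the anaphase-promoting complex, at 0.14. PTTG1, which encodes securin, the guard of sister chromatids, had 21.2, 21 and 19.2 CPM in the combination libraries, against 211, 166 and 170.3 CPM in the control libraries (log2 fold change -3.16 ± 0.12, edgeR adjusted p = 2.76e-08). CCNB2, which encodes cyclin B2, had 34, 33.2 and 31.3 CPM in the combination libraries, against 179.6, 149 and 157 CPM in the control libraries (log2 fold change -2.30 ± 0.10, edgeR adjusted p = 6.2e-08). GTSE1, a microtubule-binding protein of G2 and S phase, and UBE2C, the ubiquitin-conjugating enzyme of the anaphase-promoting complex, had log2 fold changes of -3.17 ± 0.13 and -2.62 ± 0.12. In each of these 4 genes the 3 combination libraries lay below all 3 control libraries.

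The machinery of chromosome segregation followed the same direction, in 39 of 41 spindle, condensin and cytokinesis genes (median log2 fold change -2.11) and 31 of 35 kinetochore and centromere genes (median -1.58). CKAP2 (-0.69) and STMN1 (0.33) were the spindle genes that did not pass. CENPF, a kinetochore protein of G2 and mitosis, had 111, 107 and 104 CPM in the combination libraries, against 1042, 850.4 and 872 CPM in the control libraries (log2 fold change -3.10 ± 0.12, edgeR adjusted p = 3.11e-08). SPC25 and NDC80, parts of the complex that attaches kinetochores to microtubules, and SKA3, which strengthens that attachment, had log2 fold changes of -3.43 ± 0.19, -2.59 ± 0.19 and -2.92 ± 0.22. CDCA3, which takes part in mitotic entry, averaged 9.88 ± 0.0684 CPM in the combination and 93.2 ± 7.72 CPM in control (SD, n = 3 each). SPAG5, which encodes the spindle protein astrin, CIT, the citron kinase of the midbody, and NCAPH, a condensin subunit, had log2 fold changes of -2.03 ± 0.08, -2.13 ± 0.09 and -2.62 ± 0.11. Reads of the tubulin genes TUBA1B and TUBA1C, both among the falls, may be shared between near-identical copies, so their separate values are uncertain.

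Kinesins, the motors that walk along microtubules, moved in both directions. The largest fall was that of KIF20A (chr5:138178719-138187715), which carries cargo to the spindle midzone, with 9.65, 8.18 and 10.2 CPM in the combination libraries, against 160.3, 150.3 and 142 CPM in the control libraries (log2 fold change -4.01 ± 0.12, edgeR adjusted p = 6.05e-09). KIF2C, which shortens microtubules at kinetochores, had 40.4, 35.8 and 42.4 CPM in the combination libraries, against 348, 350.1 and 348 CPM in the control libraries. KIF4A, a motor on chromosome arms, and KIFC1, which gathers centrosomes, had log2 fold changes of -3.21 ± 0.12 and -2.27 ± 0.13. In all, 18 of the 38 tested kinesins fell and 7 rose. The rises of KIF5A, KIF3B, KIF3A, KIF26B, KIF3C and KIFC2 were between 0.37 and 1.04 on the log2 scale. The KIF5A call was lost in 18 alternatives, among them when any 1 library other than palbociclib library 3 was left out (adjusted p up to 0.175). The KIF3A call was lost in 8 alternatives, among them without control library 2 or 3 or combination library 1 or 2 (adjusted p up to 0.183 over the 8). The KIFC2 call was lost in 7, among them without control library 1 or 2 or any 1 combination library (adjusted p up to 0.0992). KIF3B, a motor of cilia, averaged 273 ± 6.78 CPM in the combination and 188 ± 10.4 CPM in control and KIF26B averaged 128 ± 7.19 CPM in the combination and 69.6 ± 3.47 CPM in control (SD, n = 3 each). KIF19, the other rise, had 35 counts over the 3 combination libraries and none in control, which is at least 13.8-fold higher against a floor of 3 counts over the control group. It could pass the filter for low counts only through libraries of other groups, so its direction was largely set by the filter. Without control library 2, or combination library 1 or 2, 4 kinesins rose.

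Promoters of these mitotic genes often hold the CHR element, searched as TTTGAA on either strand, and 3 stretches of genes with among the smallest adjusted p in their lists are shown with the match in capitals. They are RefSeq sequence of build GRCh38.p14 before the RefSeq start site, read 5′ to 3′ on the gene's strand. The KIF4A stretch lies at chrX:70290020-70290103 (plus strand), that of GTSE1 at chr22:46296794-46296869 (plus strand) and that of CIT at chr12:119877483-119877570 (minus strand). Relative to the start, the match begins at base -34 in KIF4A, -26 in GTSE1 and, much farther away, -208 in CIT.
KIF4A: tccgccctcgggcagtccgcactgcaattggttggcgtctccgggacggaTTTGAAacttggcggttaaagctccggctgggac
GTSE1: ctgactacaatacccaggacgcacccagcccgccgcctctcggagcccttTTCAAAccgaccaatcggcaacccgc
CIT: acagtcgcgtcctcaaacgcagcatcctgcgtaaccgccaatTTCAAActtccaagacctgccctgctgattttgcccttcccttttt
The motif was in 9.75% of all 11595 promoters, in 75% of the spindle list (27 of 36), in 54.5% of the G2 list (12 of 22), in 44.8% of the kinetochore list (13 of 29) and in 33.3% of the kinesin list (10 of 30). It was in 3.33% of the origin list and in none of the polymerase list. Promoters of genes that fell held it in 12.2% and those of genes that rose in 8.67%. CHR and the CCAAT box stood together in 55.6% of spindle promoters and 40.9% of G2 promoters, against 4.17% of all. The median match began 26.5 bases before the start in the spindle list and 31 bases before it in the G2 list, against 135 bases over all promoters. Within the 100 bases before the start, the shares were 30.6% of the spindle list, 31.8% of the G2 list and 2.54% of all.

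**Figure D4:**
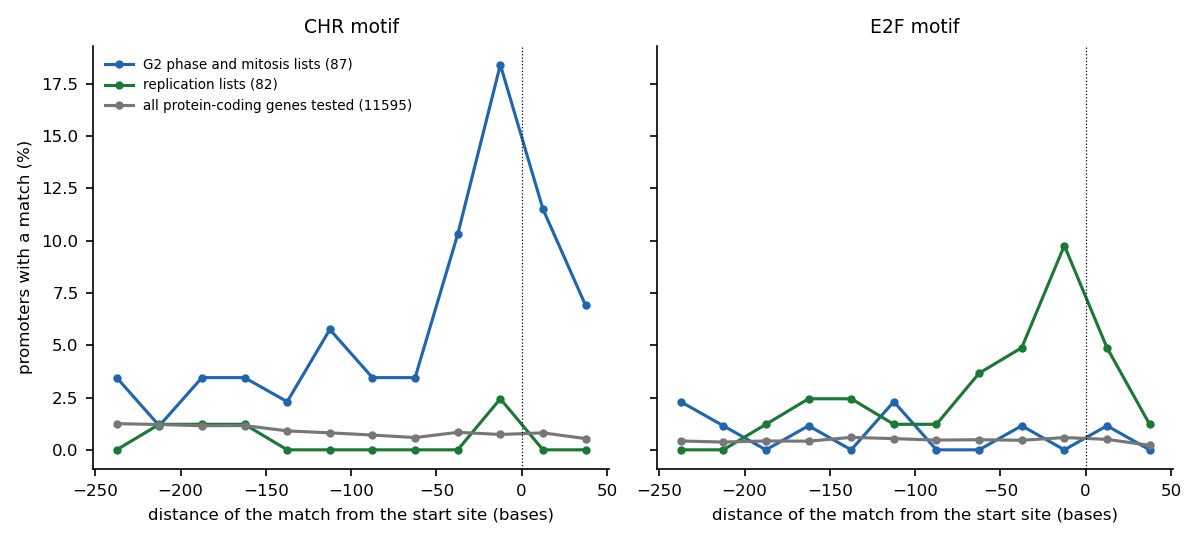
Share of promoters with a match, in percent, by the distance of the match from the start site in bins of 25 bases, for CHR on the left and E2F on the right. Blue is the pooled G2, spindle and kinetochore lists (87 promoters), green the pooled replication lists (82 promoters) and grey all protein-coding genes tested (11595 promoters). CHR peaks just before the start in the mitotic lists, at 18.4% in 1 bin, and E2F peaks there in the replication lists, at 9.76%.

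Chromatin and repair genes that work at the replication fork fell with the replication genes. Of the 35 tested genes of chromatin assembly and DNA methylation, 24 fell and 1 rose. CHAF1B, which places histones on new DNA, averaged 5.73 ± 0.461 CPM in the combination and 28.5 ± 1.62 CPM in control (SD, n = 3 each), and H2AFZ, the gene of histone H2A.Z, averaged 60.3 ± 3.59 CPM in the combination and 161 ± 6.69 CPM in control (SD, n = 3 each). HMGB2 and LBR, a chromatin protein and the lamin B receptor, had log2 fold changes of -2.77 ± 0.21 and -2.02 ± 0.13. DNMT3A, a methyltransferase that sets new methylation marks, was the member that rose, at 0.43 ± 0.11. In homologous recombination and the Fanconi pathway 34 of 40 genes fell, none rose (1 without control library 1), and the median was -1.32. EXO1, which resects DNA ends, had 11.2, 10.3 and 9.36 CPM in the combination libraries, against 95.8, 85.7 and 89.9 CPM in the control libraries (log2 fold change -3.14 ± 0.14, edgeR adjusted p = 5.99e-08). RAD54L, a motor of strand exchange, and FANCD2, the clamp of crosslink repair, had log2 fold changes of -2.19 ± 0.13 and -1.67 ± 0.10.

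The single drugs are given for the same lists. Each is set against the same 3 control libraries as the combination, so the values are given side by side. The combination differed from palbociclib alone in 788 genes (3.82% of those tested), 599 (2.91%) lower and 189 (0.917%) higher in the combination, and from BLU9931 alone in 5572 genes (27.0%). In the 11 cell cycle lists, 158 of 358 tested genes were lower in the combination than with palbociclib alone and none was higher. The G2 list had a median log2 fold change over control of -2.14 with both drugs, -0.91 with palbociclib and 0.00 with BLU9931. The spindle list had -2.11, -0.90 and -0.04 in the same order, and 32 of its 41 genes were lower in the combination than with palbociclib. The origin list had -1.52, -0.84 and -0.22, with 18 of 36 genes lower. KIF20A averaged 9.34 CPM in the combination, 61.6 CPM with palbociclib, 158 CPM with BLU9931 and 151 CPM in control, and combination and palbociclib differed (edgeR adjusted p = 5.16e-07). MKI67 averaged 63.4, 316, 1150 and 1042 CPM in those 4 groups (combination against palbociclib, edgeR adjusted p = 5.14e-05). CCND1, at 504 CPM in the combination and 469.8 CPM with palbociclib, did not pass that test (edgeR adjusted p = 0.595).

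**Figure D5:**
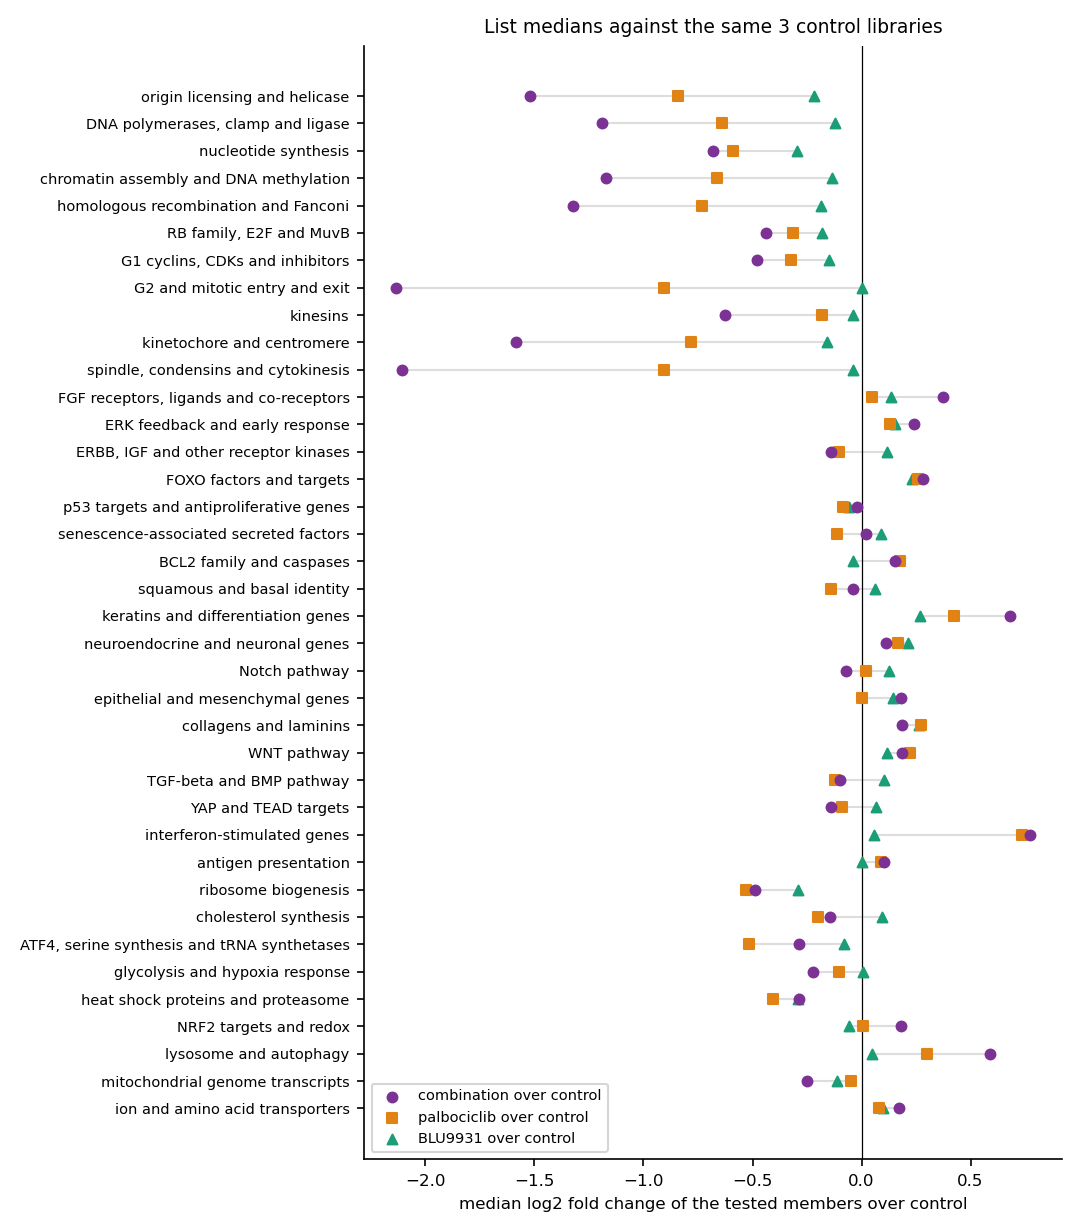
Median log2 fold change over control of the tested members of each list, for the combination (purple circles), palbociclib (orange squares) and BLU9931 (green triangles), all against the same 3 control libraries. The 3 symbols lie apart in the replication and mitosis lists, as in the G2 list at -2.14, -0.91 and 0.00, and close together in lists such as ribosome biogenesis, at -0.49, -0.53 and -0.29.

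Of the 75 genes that the naming rule gave for a rise, 21 were also higher in the combination than with palbociclib alone, and 68 were higher than with BLU9931 alone. Of the 120 that it gave for a fall, 77 were lower than with palbociclib alone and 115 lower than with BLU9931 alone. Most of these genes were picked for their change against control in the same combination libraries, which favours such differences, so the counts are not a test. Over all genes tested, 0.917% were higher and 2.91% lower in the combination than with palbociclib. SLC18A2, the vesicular monoamine transporter, was the named riser that was lower with both drugs than with palbociclib, at 22.2 CPM against 55.9 CPM (edgeR adjusted p = 0.00662).

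In the FGF axis that BLU9931 addresses, ligand genes moved in both directions and none of the receptor genes FGFR1 to FGFR4 passed the threshold. FGFR4 (chr5:177086886-177098144), the drug's target, had 20.7, 22 and 22.7 CPM in the combination libraries and 25.3, 46.2 and 50.6 CPM in the control libraries. Its combination libraries all lay below control, but control library 1 stood close to them, and the fold change of -0.90 ± 0.33 on the log2 scale did not pass (edgeR adjusted p = 0.0607). It passed in 9 alternatives, among them without control library 1 (log2 fold change -1.17, adjusted p = 0.0192). Palbociclib alone gave 21.4 CPM and BLU9931 alone 53 CPM of FGFR4. FGFR1, another receptor of the family, had 935, 1006 and 996 CPM in the combination libraries and 556, 871 and 873 CPM in the control libraries and did not pass (edgeR adjusted p = 0.195, or 0.0445 without control library 1 and palbociclib library 3). FGF19, the ligand of FGFR4, had 283, 284 and 339 CPM in the combination libraries and 312, 377 and 385 CPM in the control libraries and did not pass. Of 24 tested genes of the axis 6 rose and 4 fell, and 9 more were too low to test. Its share of falls was near the 16.3% over all genes tested, of which 15.4% rose. FGF4 had 2.08, 1.31 and 1.41 CPM in the combination libraries, against 19.5, 13.5 and 13.1 CPM in the control libraries (log2 fold change -3.27 ± 0.23, edgeR adjusted p = 1.75e-06), and palbociclib alone gave 2.08 CPM. FGF2 had 6.75, 5.37 and 5.56 CPM in the combination libraries, against 28.7, 19.6 and 17.1 CPM in the control libraries (log2 fold change -1.88 ± 0.24). FGFBP3, which releases stored FGF from the matrix, had a log2 fold change of -1.42 ± 0.17. Its relative FGFBP1 rose, to 15.8 CPM in the combination against 7.14 CPM in control, where palbociclib alone had 6.5 CPM and BLU9931 alone 19.7 CPM (combination against palbociclib, edgeR adjusted p = 0.000126).

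ERK feedback genes, which ERK signalling normally induces, did not move in 1 direction: 5 of 32 rose, or 8 under GC correction, and 7 fell, or 4 without combination library 1. Such shares are near those over all genes tested, where 15.4% rose and 16.3% fell. DUSP6, the ERK phosphatase, had 119, 123 and 122 CPM in the combination libraries, against 73, 83.2 and 55.6 CPM in the control libraries (log2 fold change 0.78 ± 0.19, edgeR adjusted p = 0.00915). That call was lost on the log2 scale of TPM or FPKM (adjusted p up to 0.29). SPRY4, an inhibitor of receptor signalling, had a log2 fold change of 0.29 ± 0.12 and did not pass (edgeR adjusted p = 0.0862), although it did under both GC corrections (adjusted p up to 0.0332). It stood at 113 CPM in the combination and 162 CPM with palbociclib alone, a difference that passed (edgeR adjusted p = 0.034). ETV4, an ETS factor downstream of FGF receptors, had 10.8, 10.2 and 11.7 CPM in the combination libraries and 12.3, 21.4 and 21.4 CPM in the control libraries (log2 fold change -0.76 ± 0.24, edgeR adjusted p = 0.0297). ETV4 was lost in 10 alternatives, among them without control library 2 or 3 or any 1 combination library (adjusted p up to 0.0987). DUSP10, a phosphatase of stress kinases, EGR2, an early response factor, and SPRY3 rose, with log2 fold changes of 1.94 ± 0.13, 1.76 ± 0.16 and 1.33 ± 0.20. IER3 fell, at -1.02 ± 0.19. MYC had 50.6, 39.7 and 19 CPM in the combination libraries and 2.83, 35.1 and 32.4 CPM in the control libraries, a spread within groups as wide as the difference between them (edgeR adjusted p = 0.649).

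Receptor kinases and growth factor binding proteins changed in both directions, with 9 of 39 rising and 10 falling. KIT, the stem cell factor receptor, had 17.4, 15.3 and 16.4 CPM in the combination libraries, against 90.02, 81.7 and 80.2 CPM in the control libraries (log2 fold change -2.36 ± 0.13, edgeR adjusted p = 3.39e-07). IGF1R, the receptor of insulin-like growth factors, had 0.453, 0.462 and 0.753 CPM in the combination libraries, against 6.29, 5.61 and 4.9 CPM in the control libraries (log2 fold change -3.30 ± 0.24). Its ligand gene IGF1 and the binding protein gene IGFBP5 went the other way. IGF1 had 20.7, 23 and 25.9 CPM in the combination libraries, against 4.21, 4.26 and 5.21 CPM in the control libraries, and IGFBP5 had 2901, 3018 and 3332 CPM in the combination libraries, against 961, 1095 and 1126 CPM in the control libraries (log2 fold change 1.54 ± 0.10, edgeR adjusted p = 7.78e-07). ERBB3, a receptor of neuregulins, had a log2 fold change of -1.39 ± 0.14.

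FOXO factors and the genes they induce when growth signalling is low had 10 of 28 rises and 6 falls. There were 2 falls without combination library 1 and 3 without control library 2, control library 3 or combination library 2. SESN3, a sestrin that restrains mTOR, had 287, 288 and 256 CPM in the combination libraries, against 79.8, 51.5 and 51.9 CPM in the control libraries (log2 fold change 2.18 ± 0.21, edgeR adjusted p = 1.58e-05). TXNIP, an inhibitor of glucose uptake, averaged 243 ± 8.55 CPM in the combination and 152 ± 2.13 CPM in control (SD, n = 3 each). TRIB2, a pseudokinase that restrains FOXO3, fell at -1.30 ± 0.13. In the list of p53 targets and antiproliferative genes 8 of 34 rose and 9 fell. Besides BTG2 and CDKN1A, TP53INP1 rose with 85.9, 80.5 and 77 CPM in the combination libraries, against 13.6, 7.65 and 8.81 CPM in the control libraries (log2 fold change 3.02 ± 0.23). POLH, a polymerase that bypasses lesions, and PMAIP1, the gene of the BH3 protein NOXA, fell at -1.20 ± 0.13 and -2.39 ± 0.28. The mean of BTG2 was 206 CPM with palbociclib alone, below the 285 CPM of the combination (edgeR adjusted p = 0.0196).

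In the BCL2 family the guardians and the killers did not move as blocs: 9 of 28 members rose, or 5 without control library 2, control library 3 or combination library 3, and 3 fell. The rises include CASP1, which had at most 3 counts in each control library, so its direction was largely set by the filter for low counts. The CASP1 call was lost in 5 alternatives. BCL2, which blocks apoptosis, had 1.09, 0.675 and 0.458 CPM in the combination libraries, against 7.3, 6.16 and 5.24 CPM in the control libraries (log2 fold change -3.09 ± 0.30, edgeR adjusted p = 1.79e-05). BBC3, the gene of the BH3 protein PUMA, had 4.53, 4.3 and 6.97 CPM in the combination libraries, against 1.0, 1.04 and 1.1 CPM in the control libraries (log2 fold change 2.32 ± 0.35, edgeR adjusted p = 0.000437). BMF, another BH3 gene, averaged 14.2 ± 0.95 CPM in the combination and 4.94 ± 0.44 CPM in control (SD, n = 3 each). The other falls were PMAIP1, above, and BCL2L11, the gene of BIM, at -2.19. Among secreted factors linked to senescence 19 of 39 genes, IL6 and CXCL8 among them, were too low to test. PLAUR, the urokinase receptor, and the protease inhibitor gene SERPINE2 had log2 fold changes of -3.91 ± 0.36 and -2.83 ± 0.28. IGFBP7 fell at -1.75 ± 0.32, and the gelatinase gene MMP2 rose with 115, 125 and 127 CPM in the combination libraries, against 30.5, 39.7 and 25.6 CPM in the control libraries. GLB1, the lysosomal beta-galactosidase, had 55.1, 43.1 and 53.8 CPM in the combination libraries and 32.7, 38.3 and 27.1 CPM in the control libraries (log2 fold change 0.63 ± 0.19, edgeR adjusted p = 0.0223). Its call was lost without control library 1 or 3 or combination library 1 or 3 (adjusted p up to 0.0825). In that list 4 of 20 rose, or 1 without control library 1, combination library 1 or combination library 3 and 2 without control library 3. In it 5 fell, or 3 without control library 2, control library 3 or combination library 2.

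Of 26 tested keratins and differentiation genes 13 rose and none fell, with a median log2 fold change of 0.68, and 8 rose without control library 1. A further 29 genes of the list were too low to test. KRT20, a keratin of gut and bladder epithelium, had 9.56, 11.3 and 11.5 CPM in the combination libraries, against 1.38, 1.49 and 1.61 CPM in the control libraries (log2 fold change 2.85 ± 0.18, edgeR adjusted p = 7.39e-07). CEACAM6, a surface adhesion protein, had 17.6, 16.1 and 20.7 CPM in the combination libraries, against 3.65, 3.53 and 2.38 CPM in the control libraries. TSPAN1 averaged 7.12 ± 1.02 CPM in the combination and 0.432 ± 0.153 CPM in control and KRT15 averaged 13.7 ± 1.7 CPM in the combination and 4.21 ± 0.933 CPM in control (SD, n = 3 each). KRT20, CEACAM6 and TSPAN1 were also higher than with palbociclib alone (edgeR adjusted p = 0.00124, 0.00312 and 0.0363). In the squamous and basal list 5 of 24 rose and 4 fell, or 7 under GC correction. The main counts stand beside 15.4% rising and 16.3% falling over all genes tested. JUP, which encodes plakoglobin of desmosomes and adherens junctions, had 306, 241 and 286 CPM in the combination libraries, against 65.9, 119 and 120 CPM in the control libraries (log2 fold change 1.45 ± 0.26). DSP, the desmosomal plaque protein, and KLF5, an epithelial factor, fell by less, at -0.30 ± 0.07 and -0.52 ± 0.12. The DSP call was lost on the log2 scale of TPM or FPKM (adjusted p up to 0.0747). NGFR, a receptor of basal cells, rose at 1.88 ± 0.22.

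Neuroendocrine genes, which mark another lineage of lung tumour cells, had 7 of 23 rises and 5 falls, or 3 falls without control library 2. CHGB, a secretory granule protein, had 931, 892 and 897 CPM in the combination libraries, against 406, 388 and 369 CPM in the control libraries (log2 fold change 1.23 ± 0.08, edgeR adjusted p = 1.2e-06). NCAM1 and SNAP25, a neural adhesion molecule and a vesicle fusion protein, fell at -2.12 ± 0.25 and -2.02 ± 0.46. Over the 10 neuroendocrine markers used to check the cells, the summed level was 711 to 731 TPM in the combination and 313 to 332 TPM in control. CHGB made up most of each sum, NEUROD1 was at 0 in all 6 libraries, and CHGA was at most 0.635 TPM. Whether the cells that carry these transcripts are a separate population was not tested. In the Notch pathway the ligand gene DLL1 and the coactivator gene MAML3 rose, at 1.96 ± 0.23 and 1.18 ± 0.13, as did HEY1 (1.22) and DTX3 (0.62), while NOTCH2 and JAG1 fell, at -0.99 ± 0.09 and -0.71 ± 0.10, out of 28 genes. Without palbociclib library 3, 4 Notch genes fell, and under GC correction 7 did. In the main fit neither Notch share was above that of all genes tested (15.4% rose, 16.3% fell). The DTX3 call was lost without control library 1 or 2 or any 1 combination library (adjusted p up to 0.125).

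Matrix and adhesion genes showed some of the deepest falls outside the cell cycle. LAMA1 (chr18:6941744-7117814), the alpha chain of an embryonic laminin, had 0, 0.0711 and 0.262 CPM in the combination libraries, against 6.11, 7.47 and 6.57 CPM in the control libraries. Its log2 fold change of -5.74 ± 0.46 (edgeR adjusted p = 4.42e-06) became -7.25 without combination library 3. Other basement membrane genes fell with it: COL4A2 averaged 4.35 ± 0.434 CPM in the combination and 35.1 ± 7.25 CPM in control and NID1, which links laminin to collagen, averaged 2.89 ± 0.408 CPM in the combination and 16.6 ± 1.01 CPM in control (SD, n = 3 each). COL2A1, a cartilage collagen, had a log2 fold change of -2.87 ± 0.21. Of 38 collagens and laminins 13 rose and 10 fell, and 8 were lower than with palbociclib alone, among them LAMA1 (edgeR adjusted p = 0.000126) and COL4A2 (edgeR adjusted p = 3.3e-05). Among epithelial and mesenchymal genes VIM, the intermediate filament vimentin, rose with 536, 549 and 535 CPM in the combination libraries, against 241, 243 and 198 CPM in the control libraries (log2 fold change 1.25 ± 0.11, edgeR adjusted p = 7.41e-06). FN1, which encodes fibronectin, had 1372, 1420 and 1459 CPM in the combination libraries, against 741, 850.1 and 878 CPM in the control libraries, and S100A4 averaged 5.66 ± 2.06 CPM in the combination and 1.9 ± 0.388 CPM in control (SD, n = 3 each). CDH11, a mesenchymal cadherin, fell at -2.16 ± 0.17. That list had 6 rises and 7 falls among 33 genes, beside 15.4% and 16.3% of all genes tested.

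Genes of WNT signalling moved in both directions, with 12 of 42 rising and 7 falling, or 4 falling without control library 3, combination library 1 or combination library 2. The share of falls was near the 16.3% over all genes tested, and that of rises above the 15.4%. DKK2, an antagonist of the WNT co-receptors, had 0.181, 0.142 and 0.164 CPM in the combination libraries, against 5.81, 5.26 and 5.1 CPM in the control libraries (log2 fold change -5.02 ± 0.26, edgeR adjusted p = 2.16e-07). With palbociclib alone DKK2 averaged 5.96 CPM and with BLU9931 alone 2.7 CPM, and the combination differed from palbociclib (edgeR adjusted p = 1.58e-06). DKK3 rose with 35.1, 34.9 and 37.6 CPM in the combination libraries, against 6.81, 8.27 and 9.32 CPM in the control libraries (log2 fold change 2.14 ± 0.14). NKD1, an intracellular feedback inhibitor, had 8520, 8819 and 9214 CPM in the combination libraries, against 4390, 5220 and 5352 CPM in the control libraries (log2 fold change 0.83 ± 0.08). SFRP1, a decoy receptor, fell at -1.23 ± 0.13. In the TGF-beta and BMP pathway 8 of 42 rose and 10 fell, beside 15.4% and 16.3% of all genes tested. The ligand gene BMP6 and LTBP1, which stores TGF-beta in the matrix, fell at -2.39 ± 0.20 and -0.90 ± 0.11. The activin subunit gene INHBB and the pseudoreceptor gene BAMBI rose at 1.06 ± 0.13 and 0.70 ± 0.09. Among YAP and TEAD genes 8 of 28 fell and 3 rose. AMOTL1, a scaffold of YAP, and TEAD4, its DNA-binding partner, fell at -2.25 ± 0.14 and -2.09 ± 0.26. ANKRD1, a YAP target, and VGLL4, which competes with YAP for TEAD, rose at 1.83 ± 0.18 and 0.70 ± 0.07.

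Interferon-stimulated genes rose in 18 of 33 members, with a median log2 fold change of 0.77, and 2 fell. EPSTI1 (chr13:42886388-42992271), an interferon-induced gene, had 9.15, 7.71 and 8.61 CPM in the combination libraries, against 0.782, 0.484 and 0.736 CPM in the control libraries (log2 fold change 3.66 ± 0.22, edgeR adjusted p = 4.58e-07). ISG20, an exonuclease that degrades viral RNA, had 16.8, 19.6 and 15.3 CPM in the combination libraries, against 4.5, 5.33 and 5.24 CPM in the control libraries (log2 fold change 1.77 ± 0.14, edgeR adjusted p = 2.79e-06). PARP9, an ADP-ribosyltransferase of the interferon response, averaged 35.8 ± 3.35 CPM in the combination and 15.1 ± 0.408 CPM in control (SD, n = 3 each). OAS3, a sensor of double-stranded RNA, and HERC5, the ligase of ISG15, were the members that fell. OAS3 had 10.3, 10.7 and 11.7 CPM in the combination libraries, against 31.3, 37.8 and 38 CPM in the control libraries and HERC5 had 1.04, 0.924 and 0.196 CPM in the combination libraries, against 7.11, 4.91 and 5.98 CPM in the control libraries. The list median was 0.73 with palbociclib alone and 0.06 with BLU9931 alone, against the same control libraries. EPSTI1 was higher with both drugs than with palbociclib alone (2.93 CPM, edgeR adjusted p = 0.000847). Another 14 genes of the list were too low to test.

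The promoters of EPSTI1 and ISG20 hold the core of the interferon-stimulated response element (ISRE), searched as TTTCNNTTT on either strand and shown in capitals in these RefSeq stretches (GRCh38.p14) before the RefSeq start site, 5′ to 3′ on the gene's strand. The EPSTI1 stretch lies at chr13:42992242-42992340 (minus strand) and that of ISG20 at chr15:88638898-88638996 (plus strand).
EPSTI1: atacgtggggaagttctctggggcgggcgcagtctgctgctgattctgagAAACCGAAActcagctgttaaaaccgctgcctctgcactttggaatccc
ISG20: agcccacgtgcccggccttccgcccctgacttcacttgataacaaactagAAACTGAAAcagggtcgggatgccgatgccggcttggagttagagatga
The ISRE core was in 7.05% of all 11595 promoters, in 71.4% of the interferon list (20 of 28) and in 55.0% of the antigen presentation list (11 of 20). Antigen presentation genes themselves did not rise as a group, with 5 of 25 rising and 5 falling, beside 15.4% and 16.3% of all genes tested. HLA-C had 153, 146 and 173 CPM in the combination libraries and 99.1, 56.4 and 52 CPM in the control libraries (log2 fold change 1.19 ± 0.24, edgeR adjusted p = 0.00292), a call lost under GC correction (adjusted p up to 0.121), and its reads may be shared with other class I genes. HLA-E rose at 1.01 ± 0.14. TAP2, a subunit of the peptide transporter, fell at -0.89 ± 0.12. CANX, a chaperone of class I chains, had 809, 798 and 776 CPM in the combination libraries and 1332, 1338 and 2058 CPM in the control libraries, and its call was lost on the log2 scale of TPM or FPKM (adjusted p up to 0.102). That list had 3 rises without control library 1 or combination library 2 or 3, and 3 falls without control library 2, BLU9931 library 3 or any 1 combination library.

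Genes of biosynthesis fell by modest amounts. In ribosome biogenesis 37 of 68 genes fell and none rose (1 without control library 1 or palbociclib library 3), with a median log2 fold change of -0.49. NOP56, a core protein of the RNA methylation complex, had 83.6, 80.7 and 87.1 CPM in the combination libraries, against 169, 171 and 169 CPM in the control libraries (log2 fold change -1.02 ± 0.08, edgeR adjusted p = 3.2e-06). DKC1, the pseudouridine synthase, UTP20 and EBNA1BP2, which process ribosomal RNA, had log2 fold changes of -1.0 ± 0.10, -1.03 ± 0.11 and -0.91 ± 0.09. No gene of this list differed between the combination and palbociclib alone. Among genes of the ATF4 response, serine synthesis and tRNA charging 22 of 47 fell and 3 rose. PHGDH, the first enzyme of serine synthesis, had 139.9, 139 and 153 CPM in the combination libraries, against 282, 353 and 342 CPM in the control libraries (log2 fold change -1.18 ± 0.13, edgeR adjusted p = 5.76e-05). PSAT1, the next enzyme, the serine and alanine transporter gene SLC1A4 and the secreted protein gene STC2 had log2 fold changes of -1.06 ± 0.14, -1.96 ± 0.25 and -1.24 ± 0.10. The members that rose were CHAC1, DDIT4 and GDF15, at 0.98, 1.07 and 2.22. The CHAC1 call was lost under GC correction and without control library 2 or 3, BLU9931 library 2 or combination library 1 or 2 (adjusted p up to 0.192). Heat shock and proteasome genes fell in 24 of 65 members, or in 37 without palbociclib library 3, and none rose. TCP1 and CCT5, subunits of the cytosolic chaperonin, the proteasome ATPase gene PSMC3 and HSP90AB1 had log2 fold changes between -0.79 and -0.55.

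Glycolysis and sterol genes fell in part. LDHA, the lactate dehydrogenase subunit of fermenting cells, had 167, 122 and 170.1 CPM in the combination libraries, against 488, 565 and 575 CPM in the control libraries (log2 fold change -1.82 ± 0.20, edgeR adjusted p = 4.33e-05). PFKP, a phosphofructokinase, averaged 16.9 ± 1.96 CPM in the combination and 62 ± 8.31 CPM in control and ENO1, enolase, averaged 871 ± 8.96 CPM in the combination and 1527 ± 79.9 CPM in control (SD, n = 3 each). PDK3, a kinase that restrains pyruvate oxidation, had a log2 fold change of -1.39 ± 0.21. Of 40 glycolysis and hypoxia genes 13 fell, and the 4 that rose were SLC2A3, ALDOC, SLC2A1 and ANKRD37, at 2.06, 1.07, 0.80 and 0.35. Without palbociclib library 3 there were 8 rises, and the ANKRD37 call was lost when any 1 library other than control library 1 or palbociclib library 3 was left out (adjusted p up to 0.167). In cholesterol metabolism 13 of 37 fell, among them FDPS, which makes farnesyl diphosphate (-0.90 ± 0.10), and ACAT2, an acetyl-CoA acetyltransferase (-1.14 ± 0.14). The sterol exporters went the other way: ABCA1 had 7.61, 8.28 and 8.41 CPM in the combination libraries, against 0.745, 0.519 and 0.821 CPM in the control libraries (log2 fold change 3.53 ± 0.30, edgeR adjusted p = 5.43e-06), and ABCG1 had 26.9, 27.3 and 28 CPM in the combination libraries, against 3.42, 6.3 and 5.41 CPM in the control libraries (log2 fold change 2.44 ± 0.20). TM7SF2, NR1H2 and LPIN1 were the other members that rose, at 1.11, 0.90 and 0.50. The NR1H2 call was lost without control library 1 or combination library 3 (adjusted p up to 0.0573).

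Lysosomal and autophagy genes rose in 35 of 71 members, with a median log2 fold change of 0.59, and 5 fell. NPC2, which carries cholesterol out of lysosomes, had 36.4, 37.4 and 41.6 CPM in the combination libraries, against 15.2, 16.5 and 14.2 CPM in the control libraries (log2 fold change 1.33 ± 0.11, edgeR adjusted p = 4.75e-06). SMPD1, the acid sphingomyelinase, had 15.7, 17.5 and 25.9 CPM in the combination libraries, against 4.69, 5.88 and 5.75 CPM in the control libraries (log2 fold change 1.86 ± 0.21), and WIPI1, which builds autophagosomes, averaged 21.5 ± 2.03 CPM in the combination and 9.7 ± 0.612 CPM in control (SD, n = 3 each). The falls included the proteases CTSC and CTSV and the hydrolases GUSB and PPT1, at -1.39, -1.22, -1.10 and -0.65. The median of the list was 0.30 with palbociclib and 0.05 with BLU9931. Redox genes controlled by NRF2 rose in 14 of 41 members. NQO1, a quinone reductase, had 572, 578 and 554 CPM in the combination libraries, against 308, 281 and 283 CPM in the control libraries (log2 fold change 0.97 ± 0.08, edgeR adjusted p = 4.08e-06), and palbociclib alone gave 394 CPM, below the combination (edgeR adjusted p = 0.00251). CAT, catalase, and the glutathione transferase genes GSTA4 and GSTM3 rose at 1.19 ± 0.11, 1.23 ± 0.11 and 1.11 ± 0.12. MGST1 and GSR, the 2 members that fell, had small changes (-0.42 ± 0.14 and -0.30 ± 0.10). The MGST1 call was lost without control library 1 or 2 or any 1 BLU9931 or combination library (adjusted p up to 0.109). The GSR call was lost in 17 alternatives, among them without palbociclib library 2 or any 1 control, BLU9931 or combination library (adjusted p up to 0.967).

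Of 50 ion and amino acid transporters 14 rose and 12 fell. Besides SLC9A4 and SLC26A9, the proton exchanger gene SLC9A2 rose with 258, 275 and 250.1 CPM in the combination libraries, against 102, 102 and 97 CPM in the control libraries (log2 fold change 1.38 ± 0.10, edgeR adjusted p = 2.64e-06). ANO1, a calcium-gated chloride channel, had 3.9, 5.19 and 6.22 CPM in the combination libraries, against 26.6, 30.4 and 30.1 CPM in the control libraries (log2 fold change -2.50 ± 0.17, edgeR adjusted p = 1.4e-06). SLC4A4, a bicarbonate cotransporter, fell at -2.80 ± 0.28. Of the 13 transcripts of the mitochondrial genome 2 fell and none rose, beside 16.3% falling and 15.4% rising over all genes tested. MT-ND4 and MT-ND4L, subunits of complex I, fell at -0.51 ± 0.10 and -0.49 ± 0.16. Their genes overlap, so reads may be shared, and the MT-ND4L call was lost without control library 1 or 3, BLU9931 library 3 or any 1 combination library (adjusted p up to 0.115).

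Among non-coding genes the largest rises at 5 CPM or more were those of MIR205HG, LINC01484, LINC02413 and SLC2A1-AS1. MIR205HG, the host transcript of a microRNA of basal epithelium, had 7.98, 7.79 and 9.91 CPM in the combination libraries, against 0.856, 1.0 and 0.935 CPM in the control libraries (log2 fold change 3.19 ± 0.19, edgeR adjusted p = 5.09e-07). LINC01484 averaged 36.1 ± 3.72 CPM in the combination and 4.22 ± 0.907 CPM in control (SD, n = 3 each). The largest falls by the same typing were those of C2orf48, TMPO-AS1, DLEU2 and ARHGAP11B. C2orf48 (chr2:10141382-10211725), a neighbour of RRM2, had 0.408, 0.32 and 0.229 CPM in the combination libraries, against 14.3, 11 and 12.6 CPM in the control libraries (log2 fold change -5.32 ± 0.23, edgeR adjusted p = 6.2e-08). TMPO-AS1 and DLEU2 had log2 fold changes of -2.77 ± 0.13 and -2.22 ± 0.27. The use of strand in counting is not given in the sources used here, so reads of antisense genes such as TMPO-AS1 and SLC2A1-AS1 cannot be told apart from those of their partners. ARHGAP11B (-1.79 ± 0.12) is a partial copy of ARHGAP11A, a spindle list member that fell, and its counts are uncertain for that reason.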

How the data were processed

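RNA of H520 cells was sequenced on an Illumina platform from poly(A)-directed libraries, per the labels' protocols. The authors deposited 1 table of 58174 genes that holds, per gene and library, its count along with TPM and FPKM, per the file headers. The deposited counts were used as they stand for the tests, TPM for marker levels, and TPM and FPKM for alternatives. Per the submitters' processing notes, Trimmomatic 0.36, HISAT2 2.0, StringTie 1.3.3b and bedtools 2.26.0 were used. Those notes name the mouse build mm9, but 57836 of the gene IDs are human (GENCODE 29) and 56044 have the same GRCh38 position there, so positions are given on GRCh38. How reads were counted, and whether strand was used, is not given in the sources used here.

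Genes passing edgeR's filter for low counts (20612) were fitted in 1 model of all 12 libraries with edgeR 4.0.16 (R 4.3.3), TMM scaling and the robust quasi-likelihood test, with 8 residual degrees of freedom and a common dispersion of 0.0518. Calls are Benjamini-Hochberg adjusted p below 0.05 over all genes tested. CPM values are TMM-scaled and errors of log2 fold changes are standard errors. The fit was also run on simulated counts that had 1 common dispersion for all genes and no effect of GC content. Such counts do not show how it does with a library like control library 1. Depth per library, 21730722 to 35786607 counts, limits the precision for genes under 1 CPM. Promoters are RefSeq sequence (GRCh38.p14), matched by symbol.

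Genes named are a fixed panel (FGFR4, FGFR1, CDK4, CDK6, CCND1, RB1, E2F1, CCNE2, MKI67, CDKN1A, CDKN1B, DUSP6, SPRY4, ETV4 and MYC), the 10 genes that rose most and the 10 that fell most among protein-coding ones of at least 20 CPM in either group, the 4 largest of each among non-coding genes of at least 5 CPM, and per list up to 4 called members with the smallest adjusted p and up to 2 against the majority. Others, named to complete a count, to show a gap or as the members of a family, were chosen after their values were seen. The comparison and the gene lists were chosen with earlier results of these data known. Alternatives were RLE factors, library totals, other filters, 6 libraries only, DESeq2 1.42.0, limma 3.58.1 on log2 TPM or FPKM, leaving out libraries, a replicate block and a GC correction. No column was left out as belonging to another series. Some genes that the rule names are not reported here.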

Additional observations from a re-analysis of the deposited data

How the results depend on the processing

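The number of genes past the threshold, 6532 as reported, was within 1.5 times that value in all 25 alternatives, and the share of calls that rose ran from 44.0% to 55.7%. Leaving out 1 library gave 5113 (without combination library 3) to 7841 calls (without palbociclib library 3), and leaving out control library 1 with palbociclib library 3 gave 8183. DESeq2 gave 7171, the 6 libraries alone 6290, no filter 5727 of 39878 genes, and GC correction 9021. Scaling by library totals gave 6674 and moved the median of all genes to 0.11 on the log2 scale, so changes near that size depend on the scaling. Same-numbered combination and control libraries correlated at 0.217, -0.14 and 0.332 in their deviations from the group means. These deviations also ran with GC content, so the correlations cannot show whether the numbers pair the libraries. With the replicate block 5613 genes passed, and 8586 with the block and GC correction together. GSR, which fell as reported, turned to 0.0145 with log2(TPM + 1), 0.0146 with log2(TPM + 0.1) and 0.0321 with log2(FPKM + 1), none past the threshold, and the cause was not tested. Of the 195 genes that the naming rule gave and that were past the threshold, 185 were past it in every alternative that gave a p. Of the 723 list members called, some of them named outside that rule, 562 were. List medians near 0 changed sign in some alternatives for the Notch (-0.169 to 0.0411), antigen presentation (-0.000956 to 0.172), neuroendocrine (-0.0964 to 0.401), p53 (-0.0708 to 0.0832), secreted factor (-0.154 to 0.0926) and squamous (-0.0997 to 0.0579) lists. Among genes under 1 CPM, where depth limits the precision of counts, 9.96% rose and 7.39% fell.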

Other observations

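Of 3644 long non-coding RNA genes tested, 15.4% rose, the same share as over all genes, and 8.43% fell, against 16.3% over all genes, with a median log2 fold change of 0.17. Genes under 1 CPM of any type had a median of 0.16, with 7.39% falling. By comparison, 16.2% of the 14580 protein-coding genes rose and 19.2% fell, with a median of 0.00. Of the 1739 pseudogenes 10.5% rose and 10.2% fell. Among the 2148 genes over 100 CPM 14.8% rose and 25.7% fell, and among the 5698 genes of 1 to 10 CPM 20.04% rose and 15.7% fell.

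Some genes had close to no reads in 1 group. At most 3 counts in each control library were found in 61 genes that rose, 27 of them protein-coding, and at most 3 counts in each combination library in 49 genes that fell, 27 of them protein-coding. Genes this low in 1 group could pass the filter for low counts only through libraries of other groups. Their direction was therefore largely set by the filter. Tested genes that were as low but not called were not counted.

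The median GC content of protein-coding transcripts was 52.2% for genes that rose, 45.8% for genes that fell and 49.2% for the others. On chromosome 19, 16.8% of 1318 genes tested rose and 8.19% fell, and on chromosome 13, 10.7% of 366 rose and 22.1% fell. The part of GC content in these shares was not tested.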
